A study of Mus musculus with 8 samples.

Results

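The regions described here are CpG-dense stretches of the mouse genome that carried almost no DNA methylation in leukaemic cells from Vehicle-treated mice. The genome was cut into tiles of 1000 bp from position 1 of each chromosome. A tile was taken if it lay on an autosome, held at least 60 covered CpG cytosine positions, had at least 20 reads in every library, and had a pooled methylation level (methylated reads over all reads, in percent) under 10% in both Vehicle libraries. The rule gave 8673 tiles. They are 73.3% of the 11828 autosomal tiles that passed the position and read limits, and 19.5% of the 44516 tiles of any density that had 3 or more positions and the same depth. The Vehicle levels chose the tiles, so they are given as a description and enter no comparison, although the Vehicle libraries take part in the fit that estimates the spread. The comparisons are among the other 3 groups.

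The material was DNA of I1DN leukaemic progenitors, labelled cKit+/Cd11b-, from transplanted mice. The groups were AG120 + AZA (called Combo), AG120, AZA and Vehicle, with 2 libraries each and a treatment time of 5 days. AG120 is an inhibitor of mutant IDH1, and AZA is azacitidine, a cytidine analogue that traps DNA methyltransferases. The series asks what the joint treatment does to DNA methylation, which was read by reduced representation bisulfite sequencing (RRBS), a method that enriches CpG-rich fragments and reads unmethylated cytosines as thymine. All 4 groups carry the same leukaemia, and cells of untransplanted mice are not among the groups. The labels do not say whether the 2 libraries of a group came from separate mice, so p-values measure only the spread between these libraries. A level in such a bulk library is a share of reads. Fewer cells with a methylated copy and less methylation per cell cannot be told apart.

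CpG islands are short stretches rich in CpG that escaped the loss of this dinucleotide seen in the rest of the genome. Many of them lie at gene starts, and they usually stay unmethylated whether or not the gene is active. In cancer cells some islands gain methylation, often at developmental genes. Mutant IDH1 makes 2-hydroxyglutarate, a metabolite that inhibits the TET enzymes that oxidise methylated cytosine. The tiles here were chosen by covered positions and by level, and no CpG island annotation was used.

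The tiles lay mostly at genes. A RefSeq gene overlapped 8375 of them (96.6%), a further 180 lay within 1000 bp of a gene, and 118 had no gene that near. On the 18 autosomes with promoter records, 5030 of 8426 tiles (59.7%) held an annotated start site. That share was 33.6% among 3049 tiles of the same density at or above 10% in a Vehicle library, and 32.0% among 5462 tiles of 3 to 59 positions that were also under 10% in both Vehicle libraries. Start sites of at least 2 genes lay inside 799 tiles. A tile held a median of 106 covered positions, counted on both strands, with a range of 60 to 335.

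The sequences at these gene starts were rich in CpG, as the choice by position count implies. The promoter window (250 bases before to 50 bases after a start site, RefSeq, GRCm38.p6, the coordinates of mm10) was available for 6446 starts inside the tiles. It held a median of 28 CpG, against 7 over all 31365 autosomal windows. The 6 windows printed here run 5′ to 3′ on the gene's strand, in lower case with each CpG in capitals, and were chosen because their tiles mark the ends of the range described below. A level belongs to the whole tile, and its methylated positions can lie outside the printed window. Clns1a, whose protein loads Sm proteins for spliceosome assembly, and Dus1l, a tRNA dihydrouridine synthase, had the highest levels in both Combo libraries among tiles with a start site inside. Gfi1, a zinc finger repressor of blood stem and granulocyte cells, was among the highest in both AZA libraries. Creg2, a secreted glycoprotein, was above 10% in all 6 treated libraries. Anapc2, a subunit of the anaphase-promoting complex, and Ckap2l, a protein of the mitotic spindle, had no methylated read in those 6 libraries. The windows are chr7:97696407-97696706 on the plus strand for Clns1a, chr11:120796346-120796645 on the minus strand for Dus1l, chr5:107724294-107724593 on the minus strand for Gfi1, chr1:39651133-39651432 on the minus strand for Creg2, chr2:25272216-25272515 on the plus strand for Anapc2 and chr2:129297163-129297462 on the minus strand for Ckap2l.
Clns1a: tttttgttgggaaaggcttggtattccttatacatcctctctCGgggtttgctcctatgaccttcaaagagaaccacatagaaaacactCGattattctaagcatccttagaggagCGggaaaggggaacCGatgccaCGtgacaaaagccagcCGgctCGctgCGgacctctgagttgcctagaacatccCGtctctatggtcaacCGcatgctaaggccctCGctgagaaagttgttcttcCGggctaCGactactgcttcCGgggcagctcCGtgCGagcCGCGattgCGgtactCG
Dus1l: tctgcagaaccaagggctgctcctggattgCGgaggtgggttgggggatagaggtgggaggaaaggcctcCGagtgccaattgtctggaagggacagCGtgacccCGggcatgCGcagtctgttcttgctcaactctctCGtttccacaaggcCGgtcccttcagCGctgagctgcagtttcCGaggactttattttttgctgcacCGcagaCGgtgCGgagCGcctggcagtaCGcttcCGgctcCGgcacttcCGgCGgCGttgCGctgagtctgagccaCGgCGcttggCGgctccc
Gfi1: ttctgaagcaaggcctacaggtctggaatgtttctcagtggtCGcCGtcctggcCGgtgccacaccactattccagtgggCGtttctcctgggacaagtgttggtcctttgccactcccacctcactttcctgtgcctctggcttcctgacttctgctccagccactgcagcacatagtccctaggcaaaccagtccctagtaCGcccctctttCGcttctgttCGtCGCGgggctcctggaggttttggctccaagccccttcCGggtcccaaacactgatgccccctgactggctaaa
Creg2: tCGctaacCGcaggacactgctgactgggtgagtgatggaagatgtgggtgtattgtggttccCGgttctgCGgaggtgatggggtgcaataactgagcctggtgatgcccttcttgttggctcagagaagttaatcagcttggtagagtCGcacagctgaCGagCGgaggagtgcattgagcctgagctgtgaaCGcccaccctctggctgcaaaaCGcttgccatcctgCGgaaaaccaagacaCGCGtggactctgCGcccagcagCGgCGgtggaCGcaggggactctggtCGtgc
Anapc2: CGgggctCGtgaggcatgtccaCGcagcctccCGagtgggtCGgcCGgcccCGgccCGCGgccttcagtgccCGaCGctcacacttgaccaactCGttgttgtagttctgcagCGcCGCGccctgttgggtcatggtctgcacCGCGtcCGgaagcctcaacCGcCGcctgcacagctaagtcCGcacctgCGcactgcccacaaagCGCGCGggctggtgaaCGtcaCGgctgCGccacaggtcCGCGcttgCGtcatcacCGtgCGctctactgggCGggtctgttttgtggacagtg
Ckap2l: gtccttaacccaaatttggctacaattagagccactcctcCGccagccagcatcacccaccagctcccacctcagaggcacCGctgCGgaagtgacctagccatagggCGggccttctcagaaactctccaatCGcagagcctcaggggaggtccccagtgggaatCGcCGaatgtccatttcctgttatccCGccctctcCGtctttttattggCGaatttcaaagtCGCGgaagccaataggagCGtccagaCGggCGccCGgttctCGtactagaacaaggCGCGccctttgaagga

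These windows differ widely in CpG content. The Anapc2 window held 34 CpG and the Gfi1 window 10, with 23 for Dus1l, 20 for Clns1a, 19 for Ckap2l and 17 for Creg2. The letters GGGCGG, the core of the GC box bound by SP1-type factors, were found on either strand of the Anapc2 window (1 match) and the Ckap2l window (2 matches) and in none of the other 4. Across all start windows inside the tiles, GGGCGG was present in 78.0%, against 36.0% of all autosomal windows. It was present in 71.6% of the 1213 windows in equally dense tiles at or above 10% in a Vehicle library, and in 63.1% of the 2142 windows in tiles of 3 to 59 positions under 10% in both. TATAAA, the TATA box, was present in 4.27% of the windows inside the tiles, 13.6% of all windows, and 4.95% and 6.30% of the windows in the dense tiles at or above 10% and the sparser tiles under it. CCGGAAGT, a site of ETS-family factors, was present in 9.77% of the windows inside the tiles and 3.95% of all windows. It was present in 3.05% of the windows in dense tiles at or above 10% and 10.7% of those in the sparser tiles, and in 3.29% of the 152 windows in tiles above 10% in both libraries of Combo, AG120 or AZA. Both strands were searched for each motif. No string contains another of these strings, and a match is a run of letters and not a measured binding site.

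Between 21566659 and 49222716 CpG calls fell in the tiles per library, 22.6% to 37.7% of all calls on autosomes and X, which ran from 90158614 to 130580155. The median number of reads per tile was 1989 and 1974 in the Combo libraries, 2731 and 2608 in AG120, 3965 and 4188 in AZA, and 4235 and 5004 in Vehicle. The Combo libraries were thus the shallowest and the Vehicle libraries the deepest in these tiles, and this depth moves with the treatment groups. A level of 0% printed for a tile named by its gene allows up to 3 counts of that library's reads in the tile, which is at most 0.896% except at Usf2 in a Vehicle library, where 147 reads allow 2.04%. Reads copied by PCR are not independent molecules, so such limits cover counting error only. They do not cover positions of the tile that were not read in that library.

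Among the treated groups, Combo had the most tiles at both ends of the scale. The share of tiles without a single methylated read was 40.7% and 37.9% in Combo, 28.5% and 27.1% in AG120, and 19.8% and 16.2% in AZA, against 12.9% and 10.7% in Vehicle. The share of tiles above 10% was 7.02% and 6.60% in Combo, 5.00% and 5.67% in AG120, and 4.34% and 3.86% in AZA, and 0 in Vehicle by choice. Between these ends, levels of 1 to 10% were found in 25.4% and 28.2% of tiles in Combo, 34.0% and 36.7% in AG120, 40.6% and 45.3% in AZA, and 53.4% and 55.9% in Vehicle. For each of these 3 shares the 2 libraries of a treated group lay apart from those of the other treated groups, with Combo at one end and AZA at the other. The Vehicle values are a description, since they chose the tiles.

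**Figure D1:**
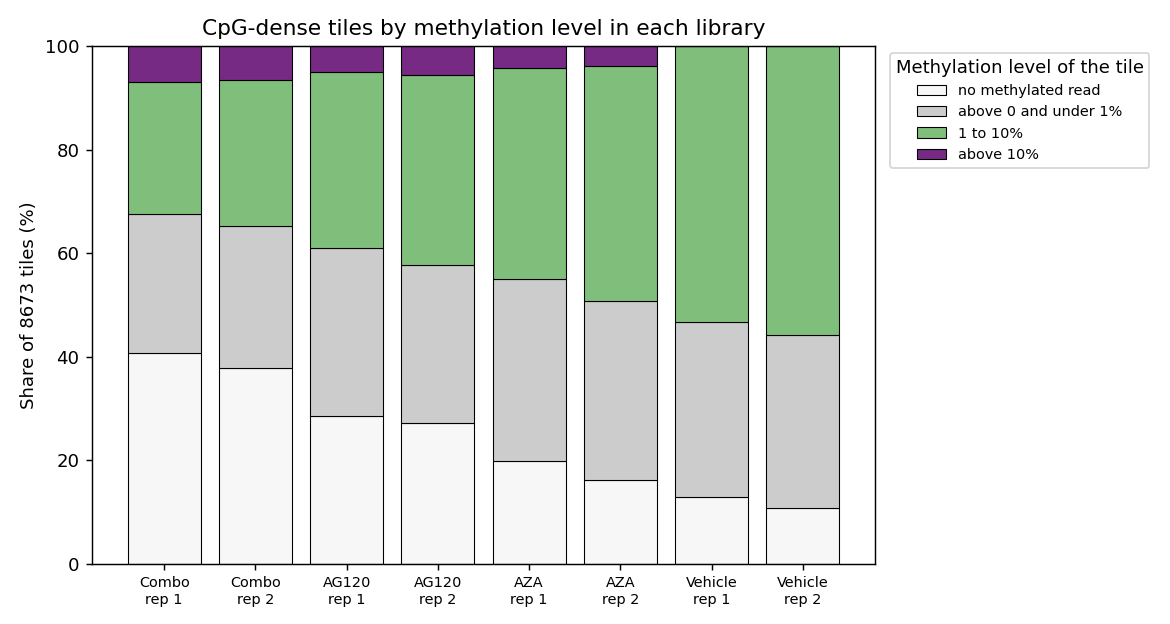
Share of the 8673 tiles (y axis, percent) in 4 classes of methylation level in each of the 8 libraries (x axis). The class without a methylated read is widest in the Combo libraries (40.7% and 37.9%) and narrowest in the Vehicle libraries, and the class above 10% is empty in Vehicle because of the choice.

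Mean and median moved in opposite directions. The mean level over the tiles was 2.47% and 2.44% in Combo, 2.27% and 2.50% in AG120, 2.23% and 2.22% in AZA, and 1.86% and 1.92% in Vehicle. The median was 0.07% and 0.11% in Combo, 0.30% and 0.42% in AG120, 0.63% and 0.95% in AZA, and 1.16% and 1.26% in Vehicle. The difference of Combo against AZA was 0.226 points in the mean and -0.703 points in the median, and the libraries of these groups overlapped in neither measure. Between Combo and AG120 the difference was 0.0685 points in the mean, where the libraries overlapped, and -0.273 points in the median, where they did not. Between AG120 and AZA it was 0.158 and -0.430 points, without overlap in either. The AG120 libraries decided the size of both mean differences. Without AG120 replicate 1 the mean difference was -0.0426 points in Combo against AG120 and 0.269 in AG120 against AZA, and without AG120 replicate 2 it was 0.180 and 0.0468 points. No p is given for these values over chosen tiles, and 2 libraries against 2 could reach no less than an exact permutation p of 0.333.

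A share without a methylated read depends on depth by construction, and the order of the groups stayed when depth was equalised. With every tile brought to the depth of its shallowest library (median 917 reads), the expected share without a methylated read was 47.8% and 45.1% in Combo, 38.8% and 36.7% in AG120, 32.3% and 28.1% in AZA, and 23.7% and 21.6% in Vehicle. In the 4053 tiles where each library had 1000 reads or more, the same calculation gave 34.7% and 31.7% in Combo, 25.2% and 23.3% in AG120, and 18.8% and 14.6% in AZA. The libraries of each treated group stayed apart from the others in both calculations. Both draw from reads, which can be PCR copies, so they do not equalise the number of independent molecules.

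Equal depth does not equalise which positions were read. Positions with at least 10 reads numbered 210597 and 217971 in the Combo libraries, 282597 and 294530 in AG120, 362296 and 398146 in AZA, and 432660 and 460314 in Vehicle. Only 15843 positions in 2513 of the tiles had at least 5 reads in all 8 libraries. Over these shared positions the share of tiles without a methylated read was 74.9% and 74.3% in Combo, 69.6% and 71.6% in AG120, 64.9% and 63.5% in AZA, and 62.3% and 56.4% in Vehicle. The order of the groups was thus the same, with smaller gaps. Depth was not equalised in this count. Median reads per tile over the shared positions were 544 and 564 in Combo, 559 and 526 in AG120, 728 and 745 in AZA, and 712 and 870 in Vehicle. The share of tiles above 10% over shared positions was 8.67% and 9.75% in Combo, 9.47% and 9.55% in AG120, 9.15% and 8.40% in AZA, and 8.48% and 8.04% in Vehicle, and here the Combo libraries overlapped with those of AG120 and of AZA. The mean level over shared positions was 2.46% and 2.78% in Combo, 2.69% and 2.99% in AG120, and 2.71% and 2.77% in AZA. There the difference was -0.115 points in Combo against AZA and -0.2197 in Combo against AG120, the opposite sign to the mean over all positions. These values differ from those above both in the tiles and in the positions. The same 2513 tiles over all their positions had shares above 10% of 6.41% and 6.65% in Combo, 4.74% and 5.33% in AG120, and 3.62% and 3.58% in AZA, without overlap between groups. Their share without a methylated read was 33.5% and 30.9% in Combo, 21.4% and 21.7% in AG120, and 14.3% and 11.3% in AZA, and the mean difference of Combo against AZA was 0.139 points. In these tiles Combo thus overlapped with AG120 and with AZA in the share above 10% over the shared positions, and not over all positions. AG120 lay above AZA without overlap in both.

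**Figure D2:**
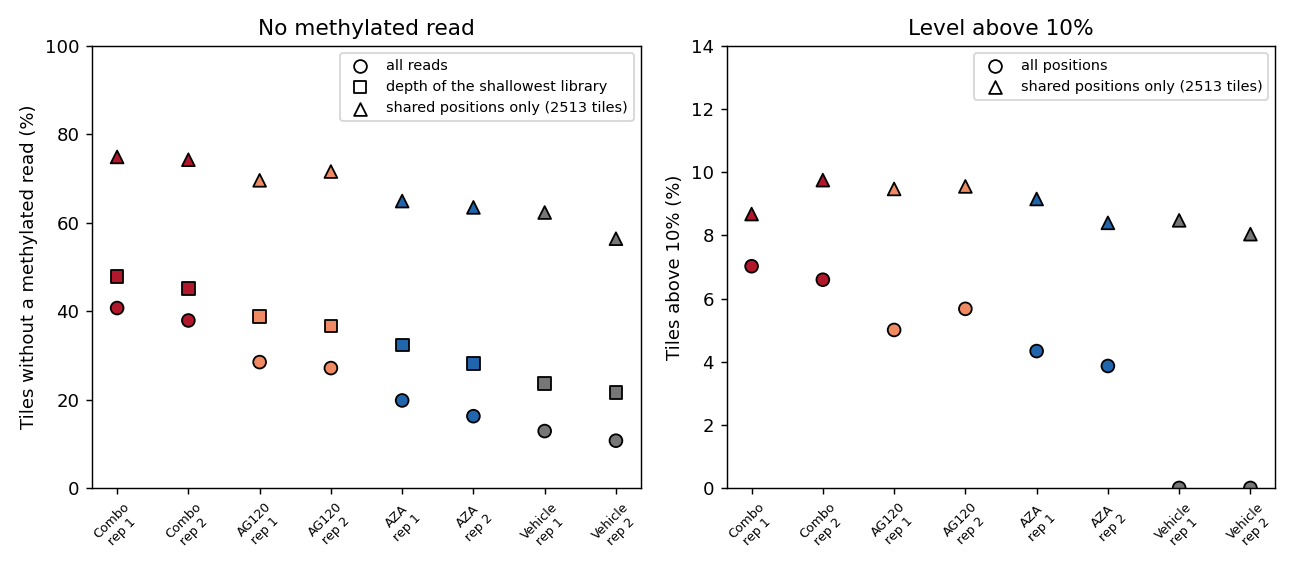
Left, share of tiles without a methylated read (percent) in each library with all reads, at the depth of the shallowest library in each tile, and over positions read in every library (2513 tiles). Right, share of tiles above 10% (percent) over all positions and over the shared positions. On the left Combo is highest under all 3 ways of counting, while on the right Combo (8.67% and 9.75%) and AZA (9.15% and 8.40%) overlap on shared positions, which come from fewer tiles.

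Tiles above 10% were seldom the same in both libraries of a group. In Combo 154 tiles were above 10% in both libraries and 873 in 1 library only, in AG120 113 and 700, and in AZA 92 and 527. Above 20% in both libraries were 29 tiles in Combo, 19 in AG120 and 7 in AZA. The tiles that both libraries of a group placed above 10% made up 23.0% to 27.5% of either library's own list. For the 12 pairs of libraries from different treated groups this share ran from 15.6% to 32.3%, a range that contains the one within groups. Across tiles, Pearson's r between levels was 0.263 to 0.302 for the 3 pairs within groups and 0.248 to 0.335 for pairs between groups. These are correlations over 8673 tiles that share read depth and base composition between libraries. Of the tiles, 6913 (79.7%) were at or below 10% in all 6 treated libraries, 1145 were above it in 1 library and 7 in all 6.

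Within a tile above 10%, methylation sat at few positions. Among positions with at least 10 reads, the one with the most methylated reads held a median of 50.5% and 50.5% of their methylated reads in Combo. The values were 45.5% and 35.1% in AG120 and 36.5% and 29.5% in AZA. Such positions numbered a median of 17 and 18 per tile in Combo, 23 and 26 in AG120 and 30 and 33 in AZA. The share of a top position depends on this number by construction. The median share of positions with at least 10 reads and a level of 0 inside such tiles was 80% to 83.3% over the 6 libraries. Over the positions of all the tiles, 1.73% and 1.73% were above 90% in Combo, 1.52% and 1.54% in AG120, 1.29% and 1.11% in AZA, and 0.940% and 0.861% in Vehicle. Positions between 10 and 90% ran the other way, with 0.91% and 0.93% in Combo, 1.24% and 1.56% in AG120, 1.64% and 2.02% in AZA, and 2.32% and 2.72% in Vehicle. Covered cytosines 1 base apart, with at least 10 reads each, were also paired. This joins the strands of a CpG and, where CpG adjoin, cytosines of different CpG. Where the first of a pair was above 10%, the next was above 10% in 20.3% and 19.6% of cases in Combo. That share was 16.3% and 14.1% in AG120, 12.9% and 13.6% in AZA and 9.70% and 11.3% in Vehicle. Where the first was not above 10%, the share was 1.86% to 2.79% over the 8 libraries. The positions and pairs compared differ between libraries, and median reads per covered position ran from 16 in a Combo library to 41 in a Vehicle library. The part of this coverage in the pattern was not tested.

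The position of a tile relative to genes went with its level. Tiles with a start site inside had a mean level of 2.20% ± 0.07 in Combo, 2.13% ± 0.13 in AG120 and 1.998% ± 0.02 in AZA (SD, n = 2 libraries each). Tiles farther than 1000 bp from any start site had 3.15% ± 0.09 in Combo, 2.98% ± 0.31 in AG120 and 2.73% ± 0.02 in AZA. Share above 10% was 8.97% ± 0.54 in Combo, 7.71% ± 0.62 in AG120 and 6.04% ± 0.12 in AZA in the tiles far from starts, and 5.90% ± 0.51, 4.26% ± 0.55 and 3.22% ± 0.53 in those same groups in tiles with a start inside. By distance, levels were lowest in the 200 bp before a start site, where the 2 Combo libraries had 1.59% and 1.48%. From 800 to 600 bp upstream the Combo libraries had 4.61% and 4.69%. In all 8 libraries, Vehicle included, levels were higher on either side of the start than at it.

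**Figure D3:**
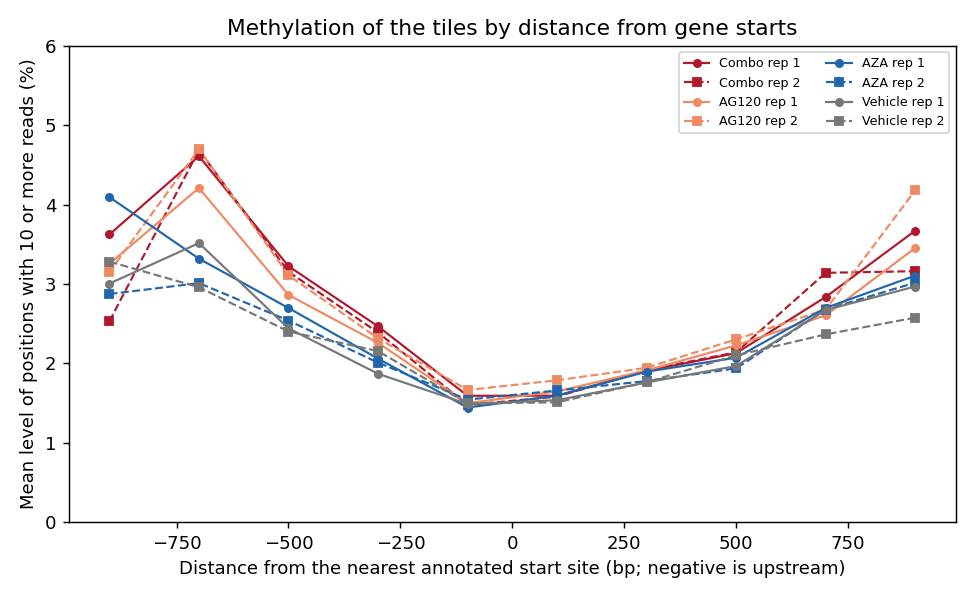
Mean level of positions with at least 10 reads (y axis, percent) by distance from the nearest annotated start site (x axis, bp, negative upstream) in 200-bp bins, with 1 line per library. All 8 libraries are lowest between 200 bp upstream and 200 bp downstream of the start and higher on either side.

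The highest tiles of the Combo libraries were led by the shared start of Clns1a and Rsf1os2, an antisense RNA of the neighbouring Rsf1 gene. The tile at chr7:97696001-97697000 had 55.2% and 62.8% in Combo, 7.94% and 4.71% in AG120, 3.93% and 1.85% in AZA, and 0.197% and 0.821% in Vehicle. Its 2 Combo libraries stood far above the 4 AG120 and AZA libraries. The methylated reads of the Combo libraries lay at 6 of 44 and 6 of 18 positions with at least 10 reads, all 6 above 90%, and the other positions were at 0. In the first Combo library the methylated positions spanned 86 bp and lay upstream of the Clns1a window printed above. In the second they spanned 306 bp and reached into that window. Adgrl1, an adhesion receptor of neurons, overlaps the tile at chr8:83901001-83902000, with 42.5% and 56.5% in Combo, 0.142% and 11.5% in AG120, 6.68% and 4.94% in AZA, and 1.66% and 2.52% in Vehicle. The Dus1l tile had 55.7% and 37.5% in Combo, 2.92% and 6.47% in AG120, 7.11% and 11.9% in AZA, and 0.910% and 0.168% in Vehicle. Both Adgrl1 and Dus1l were thus higher in each Combo library than in each AG120 and AZA library. In the Dus1l tile 3 of 12 and 3 of 10 positions of the Combo libraries were above 90% and the rest at 0. Dkk3, a secreted member of the Dickkopf family, had 35.4% and 38.6% in Combo, 24.7% and 15.6% in AG120, 9.07% and 3.37% in AZA, and 5.05% and 2.21% in Vehicle. These tiles were picked for their Combo levels, so their height is a description. In edgeR's quasi-likelihood test with Benjamini-Hochberg adjustment over all 44190 tiles, each had an adjusted p of 1 in all 3 comparisons.

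In the highest tiles of AG120, single libraries of other groups were also high. A tile without a gene at chr8:20122001-20123000 had 2.99% and 6.54% in Combo, 82.4% and 44.0% in AG120, 50.8% and 0.582% in AZA and 9.63% and 0.174% in Vehicle. The Niban1 start had 8.47% and 96.2% in Combo, 42.3% and 51.4% in AG120, 2.25% and 3.33% in AZA and 7.12% and 1.13% in Vehicle, so that 1 Combo library stood above both AG120 libraries and the other far below. In that higher Combo library only 2 positions of the tile had at least 10 reads. Usf2, an E-box binding factor, had 82.6% and 7.43% in Combo, 55.2% and 36.9% in AG120, 27.4% and 2.51% in AZA and 0% and 2.72% in Vehicle. Dcdc2a, a doublecortin-domain protein, had 13.0% and 9.92% in Combo, 31.2% and 55.1% in AG120, 30.6% and 8.38% in AZA and 7.77% and 5.14% in Vehicle. For both tiles the AG120 libraries were above the AZA libraries, and for Usf2 they overlapped with Combo.

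The tiles highest in both AZA libraries included genes of neurons and of blood cells. Slc6a2, the noradrenaline transporter, had 13.96% and 22.3% in Combo, 0% and 7.53% in AG120, 31.7% and 29.2% in AZA, and 7.96% and 9.72% in Vehicle. Rgs6, a regulator of G protein signalling, had 5.72% and 7.92% in Combo, 23.6% and 13.1% in AG120, 27.1% and 30.5% in AZA, and 8.59% and 6.87% in Vehicle. Penk, which encodes proenkephalin, had 2.38% and 7.03% in Combo, 5.00% and 5.79% in AG120, 26.1% and 22.2% in AZA, and 8.41% and 8.16% in Vehicle. In these 3 tiles both AZA libraries lay above the 4 Combo and AG120 libraries. Depth at Penk was as low as 80 reads in an AG120 library, 252 in a Combo library and 325 in an AZA library. The Gfi1 start had 8.92% and 5.63% in Combo, 0% and 21.7% in AG120, 32.0% and 21.7% in AZA, and 1.55% and 3.27% in Vehicle. Map4k3, a kinase upstream of JNK signalling, had 12.6% and 2.03% in Combo, 48.5% and 1.78% in AG120, 28.3% and 49.0% in AZA, and 3.14% and 8.11% in Vehicle. Map4k3 in AG120 shows how far apart 2 libraries of a group could be. Each of these 5 tiles had an adjusted p of 1 in edgeR's quasi-likelihood test in all 3 comparisons.

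The 7 tiles above 10% in all 6 treated libraries included the one at Galr3, a galanin receptor, and Gcat, an enzyme of threonine breakdown. It had 34.5% and 92.2% in Combo, 39.4% and 34.9% in AG120 and 11.3% and 70.1% in AZA, with 7.34% and 2.50% in Vehicle. Its depth was as low as 64 reads in a Combo library, 97 in an AZA library and 109 and 120 in Vehicle. The Creg2 start had 66.0% and 25.7% in Combo, 69.3% and 18.8% in AG120 and 11.5% and 24.5% in AZA, with 1.64% and 0% in Vehicle (0 of 389 reads, which allows up to 0.771%). Adamts1, a secreted metalloproteinase, had 27.2% and 43.1% in Combo, 13.2% and 26.7% in AG120 and 14.4% and 19.5% in AZA, with 4.26% and 5.53% in Vehicle at 1373 or more reads. In Adamts1 both Combo libraries exceeded the 4 AG120 and AZA libraries. In Creg2 Combo was above AZA without overlap, and AG120 overlapped with both. Mfhas1, Rasl11a, Ajuba and a tile on chromosome 13 without a gene completed the set. Ajuba, a LIM protein of cell junctions, had its higher values in AG120, with 12.2% and 10.2% in Combo, 29.6% and 21.3% in AG120, 10.5% and 10.7% in AZA, and 7.55% and 7.70% in Vehicle. Rasl11a, a small GTPase, had 17.2% and 10.3% in Combo, 12.7% and 12.6% in AG120, 19.04% and 12.3% in AZA and 7.29% and 9.50% in Vehicle, and its groups overlapped.

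**Figure D4:**
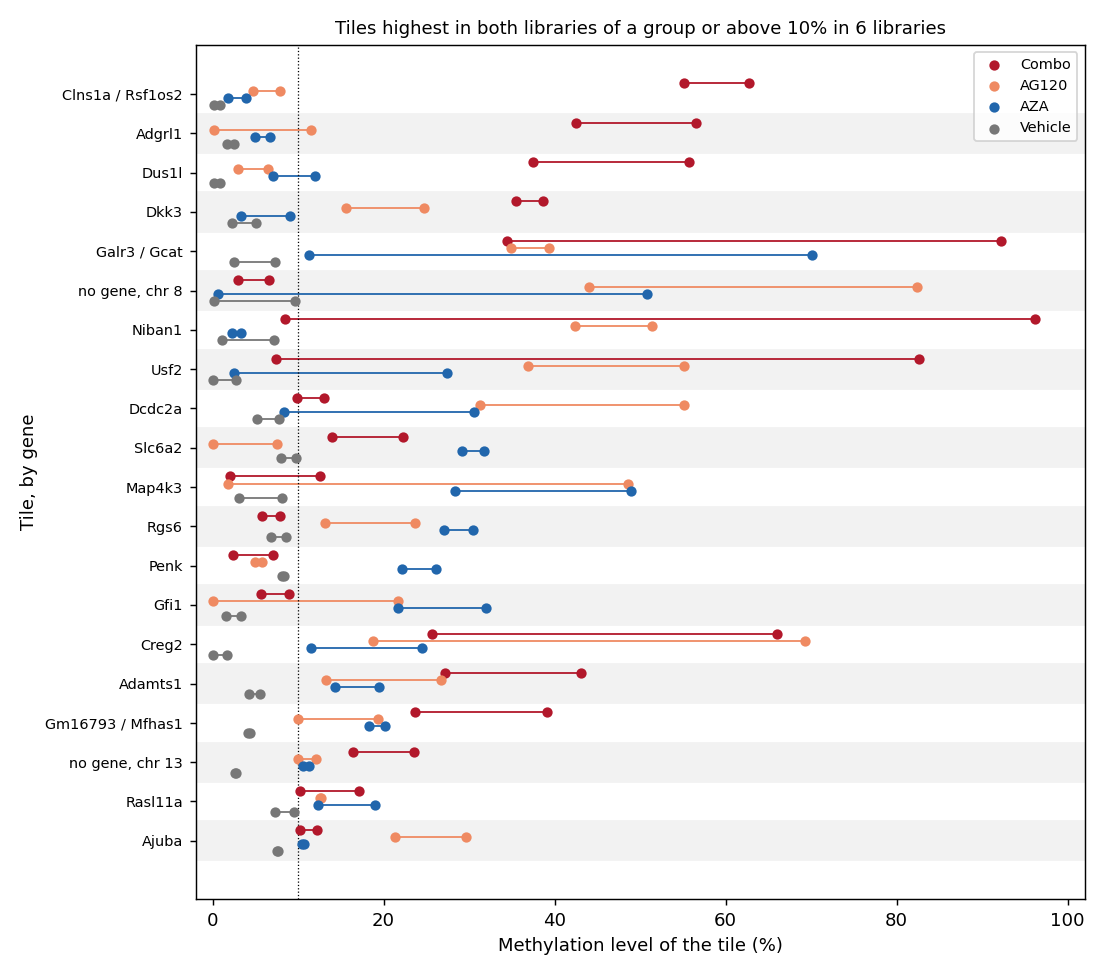
Methylation level (x axis, percent) of the tiles with the highest levels in both libraries of Combo, AG120 or AZA and of those above 10% in all 6 treated libraries, with 1 point per library, a line joining the 2 libraries of a group and a dotted line at 10%. The Combo points of Clns1a / Rsf1os2 (55.2% and 62.8%) stand apart from the AG120 and AZA points of that tile, while the 2 libraries of a group lie far apart at Niban1, Usf2 and Creg2.

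At the other end, 49 tiles (0.565%) had no methylated read in any of the 6 treated libraries. Among them Anapc2 had the most reads, between 1151 and 5993 per library, and had 4.96% and 4.13% in Vehicle. Ckap2l, which shares its tile with Gm14023, had no methylated read in any of the 8 libraries over 1219 to 4693 reads. The tiles at Otulin, a deubiquitinase of linear ubiquitin chains, and Dhx33, an RNA helicase, had 0 of at least 832 and 654 reads in each treated library, and 1.47% and 0% in Vehicle at Otulin and 0.497% and 0.604% at Dhx33. Sac3d1, a centrosome protein, had 3.20% and 6.61% in Vehicle. For the 2 Combo libraries of Anapc2 the counts allow a level of up to 0.0324% over both.

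Across the genome no tile passed the threshold between any 2 of the treated groups. In edgeR's quasi-likelihood test at an adjusted p under 0.05, 0 of 44190 tiles (0%) and 0 of the 8661 dense tiles tested passed in Combo against AZA, Combo against AG120 and AG120 against AZA. The lowest adjusted p was 1 in each, and 12 of the 8673 tiles were left out because their counts did not vary. At an unadjusted p under 0.05, 87 of these dense tiles were higher and 547 lower in Combo than in AZA, which is 1.0045% and 6.32% of them. Over all tiles tested these shares were 1.47% and 2.39%. Combo against AG120 gave 148 higher and 402 lower (1.71% and 4.64%, against 1.35% and 2.05% of all tiles). AG120 against AZA gave 141 higher and 302 lower (1.63% and 3.49%, against 1.44% and 1.53%). The Vehicle libraries, held under 10% by the choice of tiles, share in the spread of this fit. Without them, 8624 dense tiles were tested. At an unadjusted p under 0.05, 68 were higher and 440 lower in Combo against AZA. The counts were 108 and 339 in Combo against AG120, and 99 and 244 in AG120 against AZA. Over all 43748 tiles of this fit, 543 of the 1416 under that p were higher in Combo against AZA. The same count was 470 of 1232 in Combo against AG120 and 515 of 1075 in AG120 against AZA, with the rest lower. The other tools differed. limma on log2 ratios called 0 tiles in each comparison. DESeq2 called 129 dense tiles in Combo against AZA, 33 higher and 96 lower, where it called 549 of all tiles (1.24%). It called 134 in Combo against AG120, 45 higher and 89 lower, with 565 over all tiles (1.28%), and 41 in AG120 against AZA, 16 higher and 25 lower, with 242 over all tiles (0.548%). The edgeR likelihood ratio test called 321 of all tiles (0.726%) in Combo against AZA, of which 44 were dense, 11 higher and 33 lower. In Combo against AG120 it called 294 of all tiles (0.665%), of which 55 were dense, 21 higher and 34 lower. In AG120 against AZA it called 53 of all tiles (0.120%), of which 4 were dense, 2 higher and 2 lower. No tile is reported as changed here.

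Counts of tiles whose groups did not overlap had the same lean. In Combo 797 dense tiles were above AZA in both libraries (9.20%, against 14.8% of all tiles) and 2179 were below it (25.2%, against 16.1% of all tiles). Against AG120, 887 were higher in Combo (10.2%, against 12.6% of all tiles) and 1630 lower (18.8%, against 15.2%). In AG120 against AZA, 1094 were higher (12.6%, against 15.9%) and 1702 lower (19.7%, against 13.7%). Where the group means also differed by at least 10 points the lean was reversed, with 136 tiles higher and 73 lower in Combo than in AZA (1.57% and 0.843%, against 9.7% and 7.18% of all tiles). These larger counts were 105 and 94 in Combo against AG120 (1.21% and 1.09%, against 7.37% and 8.07%), and 97 and 53 in AG120 against AZA (1.12% and 0.612%, against 9.48% and 6.03%). The tiles were chosen for low levels, so nothing is read from these shares against those of all tiles. The median over dense tiles of the difference in group means was -0.143 points in Combo against AZA, -0.0378 in Combo against AG120 and -0.0453 in AG120 against AZA, and 0, 0 and 0.0825 points over all tiles tested. The 3 comparisons share their libraries in pairs and are not independent of each other.

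The tiles with the smallest p among those without overlap show what such differences look like. None passed the threshold, and each named here had an adjusted p of 1 in edgeR's quasi-likelihood test. Zc3h18, which encodes a nuclear RNA-processing protein, had 0% and 0% in Combo (0 of 5946 and 6391 reads), 1.46% and 2.66% in AG120, 1.80% and 2.30% in AZA, and 2.26% and 0.639% in Vehicle. Its difference was -2.05 points in Combo against AZA and -2.06 points against AG120. The start shared by B230354K17Rik and Cdc5l, a core splicing factor, had 0.0102% and 0% in Combo, 2.30% and 4.87% in AG120, 3.23% and 2.07% in AZA, and 0.956% and 1.135% in Vehicle. At both genes the Combo libraries were at or near 0 and the 4 AG120 and AZA libraries above them. Hdac2, a histone deacetylase, had 0% and 0% in Combo, 6.41% and 0.964% in AG120, 1.83% and 3.40% in AZA, and 0.617% and 1.15% in Vehicle. Dnph1, a nucleotide hydrolase, had 0% and 0% in Combo, 7.91% and 8.78% in AG120, 2.38% and 16.8% in AZA and 3.13% and 1.24% in Vehicle. Its positions with at least 10 reads numbered 44 and 9 in Combo, 31 and 42 in AG120 and 54 and 45 in AZA. Armc9, a protein of the ciliary base, had 0% and 0% in Combo, 0.0249% and 0.0564% in AG120, 1.98% and 2.62% in AZA and 0.101% and 0% in Vehicle, so that AZA was above both other treated groups.

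In the other direction the Combo libraries held some methylation at tiles where AZA had none or almost none. Aven, an inhibitor of apoptosis, and Chrm5, a muscarinic receptor, share a tile with 1.80% and 6.51% in Combo, 0.114% and 0.0438% in AG120, 0% and 0% in AZA, and 0.834% and 0.959% in Vehicle. In the 2 Combo libraries 90.6% and 99.02% of its methylated reads lay at 1 position. Kbtbd8, an adaptor of a ubiquitin ligase, had 5.69% and 6.83% in Combo, 0% and 0.0158% in AG120, 0% and 0.0184% in AZA and 0.175% and 0.156% in Vehicle. In Combo 100% and 94.1% of the Kbtbd8 methylated reads lay at 1 position, a different one in each library. Tmem30a, a subunit of lipid flippases, which shares its tile with 4930429F24Rik, had 2.43% and 5.83% in Combo and 0% in all 4 libraries of AG120 and AZA, with 0.484% and 0.424% in Vehicle. Ugp2, the enzyme that makes UDP-glucose, and Hinfp, a regulator of histone H4 genes, followed with differences of 3.87 and 3.70 points in Combo against AZA. Their Combo libraries were at 3.22% and 4.52% for Ugp2 and 4.28% and 3.13% for Hinfp, with 0% and 0% in AZA for both. At Hinfp the top position held 100% and 50% of the methylated reads, and the 2 Combo libraries shared no methylated position.

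Against AG120, the smallest p among higher tiles in Combo was at Hmgxb4, an HMG-box protein. It had 9.98% and 4.597% in Combo, 0% and 0% in AG120 (0 of 7558 and 8775 reads), 2.75% and 1.99% in AZA, and 0.0281% and 0.0453% in Vehicle. AG120 was thus below both other treated groups there, and the same tile led the lower tiles of AG120 against AZA, with a difference of -2.37 points. A single position held 98.9% of the Hmgxb4 methylated reads in each Combo library. Arid3b, an AT-rich interaction domain factor, had 9.24% and 14.6% in Combo, 0% and 0% in AG120, 0.0590% and 0.328% in AZA and 0.672% and 1.24% in Vehicle. Elfn1, a synaptic adhesion protein, Gnl1, a GTP-binding protein that shares its tile with Prr3, and Csnk1g3, a casein kinase, followed with 7.53, 4.89 and 4.56 points. Lower in Combo than in AG120 were Shank1, a scaffold of synapses, with 0.0228% and 0% in Combo, 11.6% and 25% in AG120, 2.44% and 1.16% in AZA and 3.24% and 4.41% in Vehicle, and Sgpl1, the sphingosine-1-phosphate lyase, with -2.65 points. Positions of the Shank1 tile with at least 10 reads numbered 27 and 10 in Combo and 31 and 13 in AG120. At 2900052L18Rik the difference was -3.71 points, with 0% and 0% in Combo and 4.79% and 2.64% in AG120.

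Between AG120 and AZA, Gltp, a glycolipid transfer protein, was among the higher tiles with the smallest p. It had 9.62% and 14.4% in Combo, 17.6% and 29.7% in AG120, 0% and 0% in AZA (0 of 1791 and 1214 reads) and 8.11% and 5.81% in Vehicle. Its first AG120 library had 188 reads, with all methylated reads at 1 position. Of its 66 covered positions, those with at least 10 reads numbered 8 and 5 in AZA, 5 and 11 in AG120 and 9 and 15 in Combo. Rprm, a mediator of cell cycle arrest, had 1.35% and 1.91% in Combo, 8.89% and 6.26% in AG120, 0% and 0% in AZA and 6.63% and 1.41% in Vehicle. In both tiles AZA was below Combo and AG120. Gatad2b, a subunit of the NuRD complex, had 0.0415% and 0.0419% in Combo, 6.004% and 6.69% in AG120, 0.0244% and 0% in AZA and 0.0465% and 0.121% in Vehicle, so AG120 was above both other treated groups. A single position held 90.7% and 94.7% of the Gatad2b methylated reads in the AG120 libraries. Gse1 with 1700016A09Rik and Socs7, a suppressor of cytokine signalling, were higher in AG120 by 4.41 and 1.63 points. Lower in AG120 were Ttc7, at -5.62 points, Rpn2, a subunit of the oligosaccharyltransferase that shares its tile with Mroh8, at -2.79 points, and 2 tiles without a gene, at -5.65 points on chromosome 7 and -3.09 points on chromosome 2, each with 0% in both AG120 libraries.

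Lists of genes by function were then read through the tiles that hold their start sites, 166 different tiles from 605 genes in 13 lists, with 14 genes in more than 1 list. None of these tiles passed the quasi-likelihood test in any of the 3 comparisons. Start sites of developmental transcription factors, typical targets of Polycomb repression, lay in 63 dense tiles. Of those, 27 (42.9%) were under 10% in both Vehicle libraries, and for all genes it was 5030 of 6055 (83.1%). These shares come from the Vehicle levels that chose the tiles, so they are a description. Those 27 had mean levels of 7.503% and 6.42% in Combo, 5.98% and 6.47% in AG120, 6.93% and 6.68% in AZA, and 4.59% and 3.78% in Vehicle. Over all 5030 tiles with a start site inside, the corresponding means were 2.25% and 2.15% in Combo, 2.03% and 2.22% in AG120, 2.01% and 1.99% in AZA, and 1.71% and 1.75% in Vehicle. The developmental tiles were above that value in every treated library. Among them AG120 lay below AZA without overlap, and Combo overlapped with both. Gsx2, a homeobox factor of the forebrain, had 0% and 2.83% in Combo, 11.2% and 3.48% in AG120, 15.6% and 26.2% in AZA and 2.49% and 7.96% in Vehicle. Tlx1, a homeobox factor of spleen development, had 36.5% and 8.34% in Combo, 2.57% and 8.21% in AG120, 2.16% and 15.8% in AZA and 8.16% and 7.58% in Vehicle, where a single Combo library was high.

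Start sites of cell cycle and replication genes lay in tiles below that mean in every treated library. The 24 tiles of this list had 0.991% and 0.450% in Combo, 0.676% and 1.13% in AG120, 0.473% and 1.08% in AZA and 1.60% and 1.398% in Vehicle, and 8 of them (33.3%) had no methylated read in either Combo library. Over all 5030 tiles with a start site inside this share was 19.3%. In AG120 it was 16.7% in the list and 10.9% over all, and in AZA 12.5% and 5.19%. The difference was not tested. The 38 tiles of cytosolic ribosomal protein genes had 0.387% and 2.67% in Combo, 1.06% and 1.09% in AG120, 1.58% and 1.86% in AZA and 1.43% and 1.03% in Vehicle. In the second Combo library Rpl11 had 31.9% of 138 reads and Rpl35 23.7% of 658 reads. The first Combo library had 0% and 0.0432% at these genes. The 16 tiles of housekeeping genes had 1.75% and 1.30% in Combo, 0.971% and 2.09% in AG120, 2.47% and 3.03% in AZA and 1.24% and 1.51% in Vehicle. At Gpi1, an enzyme of glycolysis, the levels were 3.74% and 0% in Combo, 0% and 0.0905% in AG120, 0.142% and 34.7% in AZA and 1.21% and 0.946% in Vehicle, so a single AZA library was high.

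Lists of blood genes were small. The 13 tiles of stem and progenitor genes had 0.823% and 0.687% in Combo, 1.63% and 2.63% in AG120, 6.23% and 2.25% in AZA and 3.02% and 1.36% in Vehicle. Combo lay below AG120 and below AZA without overlap, and the AZA libraries differed most at Gata2, a stem cell factor, with 1.43% and 4.57% in Combo, 0.727% and 3.05% in AG120, 58.5% and 5.37% in AZA and 7.31% and 2.001% in Vehicle. Hoxa10 had 0.362% and 2.35% in Combo, 11.5% and 6.91% in AG120, 0.0604% and 0.689% in AZA and 8.46% and 1.26% in Vehicle. The 6 myeloid tiles had 1.82% and 5.47% in Combo, 4.01% and 14.6% in AG120, 7.44% and 4.08% in AZA and 1.51% and 4.27% in Vehicle. Irf8, a factor of monocyte and dendritic cells, had 0.266% and 9.47% in Combo, 9.32% and 43.8% in AG120, 1.34% and 0.136% in AZA and 0% and 8.85% in Vehicle. Kit and Itgam, the genes of the surface markers in the cells' label (Itgam encodes Cd11b), had 0 tiles in the set. Of the markers of other cell types, 2 lymphoid tiles (of 7 dense ones), 1 erythroid tile (Zfpm1) and 1 stromal tile (Des, of 4 dense ones) were in the set. The Des tile had 26.0% and 23.2% in Combo, 5.65% and 50.7% in AG120 and 19.6% and 41.3% in AZA. Methylation at a start site does not measure expression, so no cell type is called from these values.

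**Figure D5:**
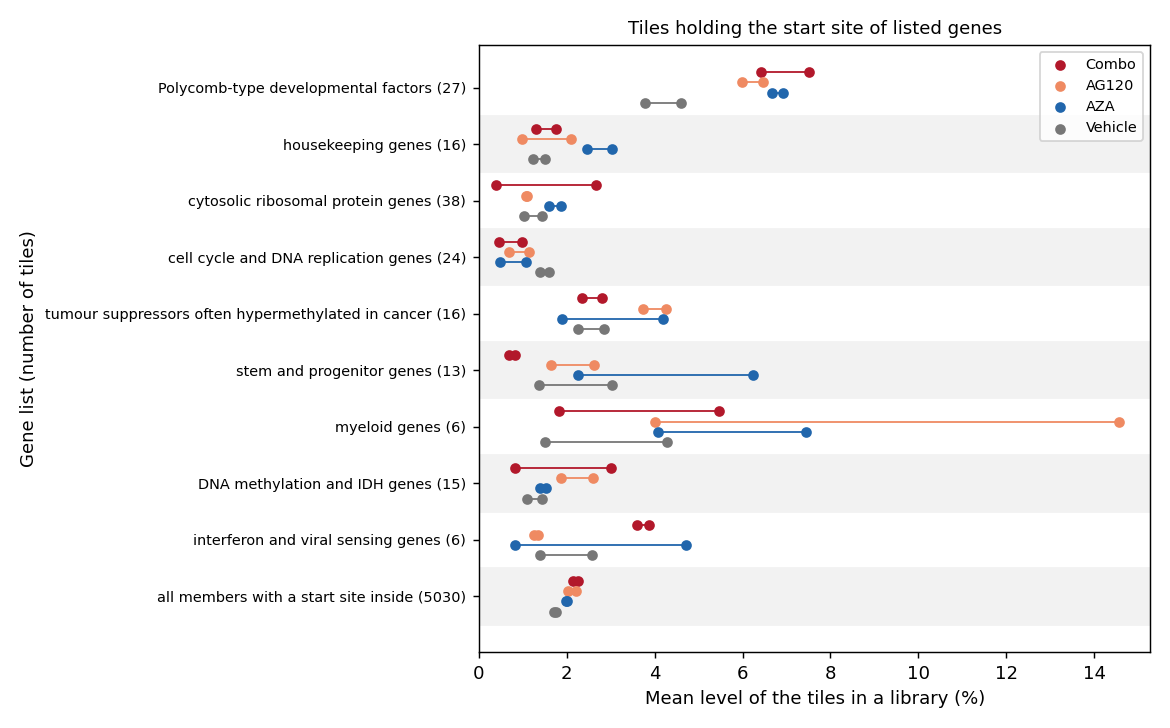
Mean level (x axis, percent) of the tiles that hold the start sites of listed genes, with 1 point per library and a line joining the 2 libraries of a group, for lists with at least 3 tiles (number of tiles in brackets). Developmental factors lie at 5.98% to 7.503% in the treated libraries and cell cycle genes at 0.450% to 1.13%.

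Among the other lists, 16 tumour suppressor tiles (of 23 dense ones) had 2.36% and 2.81% in Combo, 4.27% and 3.73% in AG120, 4.19% and 1.89% in AZA and 2.24% and 2.85% in Vehicle. Combo was below AG120 without overlap and overlapped with AZA. Dapk1, a death-associated kinase, had 0% and 0.0753% in Combo, 23.0% and 2.14% in AG120, 0.852% and 1.38% in AZA, and 0.816% and 2.63% in Vehicle. Ndrg2 had 0% and 0% in Combo, 1.81% and 6.18% in AG120, 23.8% and 9.89% in AZA and 0.0501% and 8.31% in Vehicle. The 15 tiles of DNA methylation and IDH genes had 0.830% and 3.01% in Combo, 1.86% and 2.60% in AG120, 1.39% and 1.52% in AZA and 1.43% and 1.09% in Vehicle. The tile at Tet3, an oxidase of methylated cytosine, had 5.48% and 30.5% in Combo, 6.05% and 3.77% in AG120, 12.7% and 7.02% in AZA and 1.42% and 2.38% in Vehicle. The 6 tiles of interferon and viral sensing genes had 3.88% and 3.61% in Combo, 1.24% and 1.34% in AG120, 4.72% and 0.829% in AZA and 1.39% and 2.58% in Vehicle, with Combo above AG120 and the AZA libraries on either side. The median over these tiles was 0.800% in Combo, 0.0564% in AG120 and 0.938% in AZA. Adar had 19.95% and 7.73% in Combo, 6.49% and 4.39% in AG120, and 16.9% and 3.72% in AZA. The Irf2 tile had 0.133% and 13.6% (of 317 reads) in Combo, 0.0395% and 0% in AG120, and 8.77% and 0% in AZA. Only 2 of 7 dense tiles of imprinted genes were in the set (Gnas and Inpp5f), and both had 0% in both Combo libraries. So had 19.3% of all tiles with a start site inside, and Inpp5f had 335 reads in the first Combo library.

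Adjacent tiles often belonged to 1 stretch. Of the tiles, 5836 stood alone, and 1245 runs of 2, 98 of 3, 12 of 4 and 1 of 5 tiles made up the rest. The run of 5, at chr11:120233001-120238000 over Bahcc1 and Gm11772, had mean levels of 1.64% and 3.61% in Combo, 1.61% and 0.492% in AG120, 0.882% and 4.81% in AZA, and 2.08% and 2.01% in Vehicle. The run of 4 at Cdk6, a kinase of the G1 phase (chr5:3341001-3345000), had 0% and 0.0776% in Combo, 1.05% and 1.23% in AG120, 0.0258% and 0.274% in AZA, and 2.25% and 2.29% in Vehicle. At Hivep2, a zinc finger factor (chr10:13964001-13968000), the 4 tiles had 0% and 1.69% in Combo, 0.0989% and 3.28% in AG120, 1.24% and 0.0837% in AZA and 1.25% and 0.631% in Vehicle. The 3 tiles with the most covered positions were at A930018O16Rik (335), on chromosome 14 without a gene (319) and at Med13l (314). Their levels ran from 0% to 3.09% over the 8 libraries.

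The limit of 10% cut through a continuous range. Just inside it, Utf1 had 9.99% and 0.100% in the Vehicle libraries, Mtcl1 3.55% and 9.99%, and Tprn 9.98% and 0.0979%. Just outside, a tile on chromosome 11 had 0% and 10%, one on chromosome 4 had 3.11% and 10.009% and one on chromosome 3 had 10.01% and 4.24%. Utf1, a chromatin factor of pluripotent cells, then had 20.8% and 1.52% in Combo, 2.02% and 63.9% in AG120 and 46.7% and 7.21% in AZA.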

How the data were processed

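The deposited table holds raw counts of methylated and unmethylated reads at each CpG cytosine of each library, per the file headers, with both strands listed and no normalization by the authors. Per the submitters' processing notes, the tools were Bismark 0.22.3 with SAMtools 1.4.1, edgeR 3.32 under R 4.0.2, Trim Galore 0.4.4 and bcl2fastq 2.17.1.14, on mm10. Whether duplicate reads were removed, and how complete the conversion was, is not given in the labels. The count columns left unused numbered 0.

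Counts were summed over 1000-bp tiles. All 44190 varying tiles on autosomes and X with at least 3 positions and 20 reads in every library were fitted with edgeR 4.0.16 (R 4.3.3), in 1 fit of all 8 libraries whose terms were the libraries and the methylation of each group. The two-sided quasi-likelihood test (robust) was adjusted by Benjamini-Hochberg at 0.05. Alternatives were edgeR's likelihood ratio test, limma 3.58.1 (pseudocount 2) and DESeq2 1.42.0. The code was tested on simulated data. Levels are pooled reads per tile, and the value at equal depth is the exact hypergeometric expectation. A value after ± is the SD over 2 libraries.

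Gene intervals and promoter windows came from RefSeq tables (GRCm38.p6), without chromosome 18 in the promoter table. Named tiles were, in each comparison, the 5 with the smallest p in each direction among groups without overlap (0 passed the threshold), the 5 highest in the lower library of each group, those above 10% in all 6 treated libraries, the 5 with most reads among those without a methylated read, the 3 nearest either side of the 10% limit, the 3 with most positions, the 3 longest runs, and the 2 tiles of each gene list with the widest range of group means. The tiles, gene lists and rules were chosen with earlier results of these data known. No sign of pairing by the labels' replicate numbers was seen, as correlations between groups of the replicate differences ran from -0.00346 to 0.0199. Such values cannot show that the libraries were not paired.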

Additional observations from a re-analysis of the deposited data

How the results depend on the processing

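No tile passed in edgeR's quasi-likelihood test under any of its own alternatives: with the replicate block (0 calls in each comparison), without the Vehicle libraries, at 100 reads, without the filter on variation, and without each library in turn (0 to 0 calls). The fits with the replicate block are the paired analysis, although no sign of pairing by these numbers was seen. The tools differed. Over all tiles the likelihood ratio test gave 321, 294 and 53 calls and DESeq2 549, 565 and 242 in Combo against AZA, Combo against AG120 and AG120 against AZA, of which 44, 55 and 4, and 129, 134 and 41, were dense tiles. limma gave 0.

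The mean difference of Combo against AZA (0.226 points) became -0.703 as a median and -0.115 over positions with 5 reads in every library. It was 0.210 with each position counted once, 0.293 and 0.189 at 40 and 80 positions, 0.111 and 0.442 with Vehicle under 5% and 20%, 0.343 and 0.340 when chosen on Vehicle replicate 1 or 2 alone, 0.198 with tiles shifted by 500 bp, 0.139 in the 2513 tiles with shared positions over all their positions (an alternative chosen after seeing the data), and 0.211 to 0.242 without a library. Combo against AG120 (0.0685) became -0.273 as a median, -0.2197 over shared positions and -0.0426 without AG120 replicate 1, with a range of -0.0426 to 0.180 without a library. AG120 against AZA (0.158) became -0.430 as a median, 0.0151 and 0.335 with Vehicle under 5% and 20%, and ran from 0.0468 to 0.269 without a library. The cause was not tested.

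Tiles above 10% in both libraries (154 in Combo, 113 in AG120, 92 in AZA) numbered 29, 19 and 7 above 20%, and 43, 51 and 43 over shared positions, which exist in 2513 of the 8673 tiles. As shares, these are 1.78%, 1.30% and 1.06% of all the tiles and 1.71%, 2.03% and 1.71% of the 2513. The same 2513 tiles over all their positions gave 41, 26 and 23 (1.63%, 1.03% and 0.915%), and a share without a methylated read of 32.2%, 21.5% and 12.8%. The share without a methylated read (39.3%, 27.8% and 18.02%) was 46.4%, 37.7% and 30.2% at equal depth, and 28.4%, 18.7% and 10.5% with 1000 reads in every library, an alternative chosen after seeing the data. At 100 reads it was 26.2% in AG120. Depth in Combo and the few shared positions limit these values.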

Other observations

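Dense tiles at or above 10% in a Vehicle library, 3155 in number, had a share without a methylated read of 5.04% and 5.07% in Combo, 3.36% and 2.63% in AG120, 2.06% and 2.16% in AZA, and 0.761% and 0.761% in Vehicle. Their mean level was 33.8% and 32.9% in Combo, 31.4% and 33.7% in AG120, 30.6% and 27.7% in AZA, and 31.0% and 32.7% in Vehicle. These tiles were also split off by their Vehicle levels, so the values are descriptions, and the difference between them and the tiles under 10% was not tested.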
